A study of Neurospora crassa with 8 samples.

Results

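The genes described here are those of Neurospora crassa, a filamentous fungus, whose identifiers run from NCU09580 to NCU09634 by number, with 1 identifier in that range not reported. They came to 43 of the 9730 genes in the table. The range was chosen because its outermost genes were among those that differed most between the mutant libraries and wild type in these same data. The expression differences below are therefore given as a description, without p-values for the chosen genes.

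The stretch was proposed as a single run of genes along a chromosome end, and the annotation of the reference assembly NC12 goes against that for part of it. In NC12, 32 of the 43 genes, NCU09634 to NCU09593, follow each other in descending order at one end of chromosome II, with NCU09634 the outermost annotated gene. The other 11, NCU09591 to NCU09580, lie together inside chromosome VII. The identifier next above NCU09634, NCU09635, lies on chromosome IV. All 43 matched the assembly by identifier. Only the order of the genes was taken from NC12, since the build behind the deposited values is not given in the sources used here. In that order 5 other annotated identifiers lie between NCU09634 and NCU09593.

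Polycomb repressive complex 2 (PRC2) is an enzyme complex that methylates lysine 27 of histone H3, and genes carrying this mark are mostly silent. In Neurospora the mark is known to cover large domains, many of them next to the telomeres, and set-7 encodes the catalytic subunit. The series names pas (NCU04278) as an accessory subunit of this complex. Of the 43 genes only cen-c (NCU09609) and stk-55 (NCU09595) carry a symbol in NC12, so the others are named by identifier and no function is given for them.

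Poly-A RNA was sequenced from 2 wild type (WT) strains and 2 strains labelled ∆pas, with 1 library per strain. All were shaken at 32 °C for 16 hours in Vogel's minimal medium with 1.5% sucrose, and all are labelled as germinated conidia. WT replicate 1 is labelled mating type A, while WT replicate 2 and both ∆pas libraries are labelled mating type a. The ∆pas strains carry the marker nat-1 at pas. The 4 ChIP samples of the series were not analysed here. Deposited count columns that name set7 match no sample of the series and were not used. The values of ∆set-7 given here therefore come only from the authors' deposited comparison with WT.

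Reads in genes numbered 7139105 and 10997599 in WT replicates 1 and 2, and 14679872 and 13679487 in the libraries labelled ∆pas. Values are normalized read counts, that is, reads divided by 1 factor per library. A count of 0 allows up to 3 reads, worth at most 4.84 normalized counts, in WT replicate 1; this limit, like the intervals below, covers counting error only. The pas transcript had 119 and 95.1 normalized counts in WT and 43.1 and 98.1 under the label ∆pas, so the counts do not show its loss and every direction below rests on the labels. The difference in pas had a limma adjusted p of 0.371. None of the 5 genes of the PRC2 list differed by limma, where the lowest adjusted p was 0.274 and 0 had an unadjusted p under 0.05. The edgeR and DESeq2 tests called 0 of them too. The growth stage was checked with 5 genes, of which act and tef-1, of growing cells, were abundant in all 4 libraries and 3 conidiation genes summed to 11639 and 31640 normalized counts in WT and to 6692 and 4850 under the ∆pas label, with none at 0. Among these eas, which encodes the hydrophobin of conidia, was at 8931 and 30020 against 3311 and 2983, and con-6 at 636 and 562 against 999 and 1157. Neither passed limma's threshold (adjusted p = 0.0833 and 0.0797), and their part in the results below was not tested. In such bulk samples fewer cells of a type and less RNA per cell cannot be told apart.

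Where the genes were silent was examined first. A gene was called silent in WT when it had at most 3 reads in each WT library. This held for 13 of the 43 genes, against 13.8% of all genes in the table. Of the silent genes 5 were on chromosome II and 8 on chromosome VII. Of those on the end of chromosome II, 4 of the 5 were higher in both libraries labelled ∆pas than in both WT libraries, and none of the 8 on chromosome VII was. Of the 1338 genes silent in WT in the whole table, 16.1% were higher in both. Genes near 0 in WT have little room to be lower, so the share is given among silent genes. Of the 4, NCU09623 had only 14 and 8 reads in ∆pas replicates 1 and 2, and NCU09605 only 7 and 6. The range was chosen on this contrast, so nothing about the genes is read from the count.

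To follow the change inward from the chromosome end, genes were marked as higher when both libraries labelled ∆pas lay above both WT libraries and the ratio of the group means was at least 2. A WT mean below 4.84 was set to that limit. By this rule 14 of the 43 genes were higher and 0 were lower, against 2.95% and 3.19% of all genes in the table. All 14 were on chromosome II. They made up 9 of the outermost 10 genes of the end and 5 of the 22 genes further in. Without the fold limit, 21 of the 43 genes lay above WT in both libraries labelled ∆pas and 4 lay below, where all genes gave 26.8% and 23.8%. Since the range was chosen on this contrast, nothing about the genes is read from these shares.

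**Figure D1:**
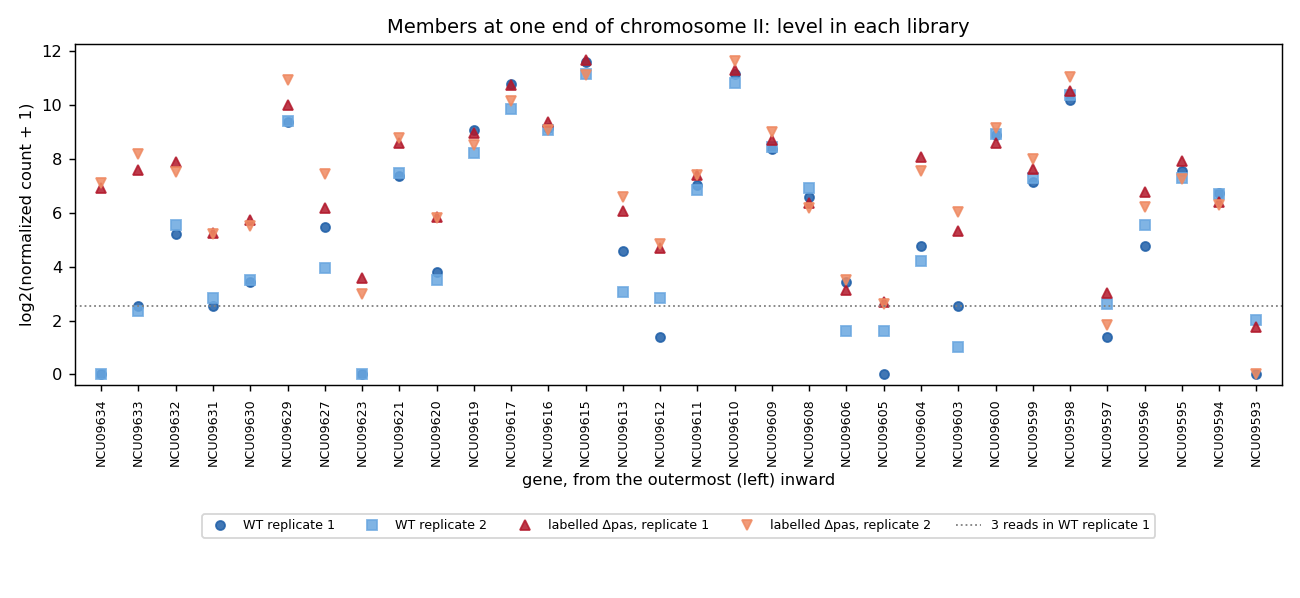
Level of the 32 genes at the end of chromosome II in each of the 4 libraries, as log2(normalized count + 1), from the outermost gene on the left inward; the dotted line marks 3 reads in WT replicate 1. The libraries labelled ∆pas lie above WT for the outermost 10 genes, overlap with WT at NCU09619 to NCU09615, and lie clearly above it again at NCU09613, NCU09612, NCU09604, NCU09603 and NCU09596.

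The outermost 2 genes had few or no reads in WT, and the outermost 3 were all far above WT in both libraries labelled ∆pas. NCU09634 was without a read in the WT libraries, and ∆pas replicates 1 and 2 held 121 and 138 normalized counts of it. The mean of these, 129 ± 11.9 (SD, n = 2), was at least 26.7-fold higher than 3 reads in WT replicate 1, the shallower WT library. NCU09633 was at 4.84 and 4.13 in WT, from 3 and 4 reads, and at 192 and 287 in the libraries labelled ∆pas. The ratio of its pooled reads, corrected for the library factors, was 53.9 (exact 95% counting interval 26.0 to 135). Both genes thus had a handful of WT reads at most and at least 154 reads in each library labelled ∆pas.

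NCU09632 was already transcribed in WT, at 35.5 and 45.5, and stood at 236 and 180 in the libraries labelled ∆pas. Its group means were 40.5 ± 7.05 and 208 ± 39.8 (SD, n = 2 each), a 5.13-fold difference. In NC12 NCU09632 overlaps NCU09633. Whether the authors' counting used strand is not stated, so reads of this pair cannot be told apart with certainty.

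The next genes inward were higher by smaller factors. NCU09631 was at 4.84 and 6.20 in WT and at 36.9 and 36.1 in those labelled ∆pas, a ratio of pooled reads of 6.44 (exact 95% counting interval 3.24 to 14.5). NCU09630 was at 9.68 and 10.3 in WT and at 52.5 and 43.9 in those labelled ∆pas, a 4.82-fold difference between the means. In both genes the WT libraries lay close together and far below the mutant ones.

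NCU09629 overlaps NCU09630 in NC12 and was transcribed at 654 and 679 in WT. It was at 1006 and 1932 in ∆pas replicates 1 and 2, a 2.20-fold difference between the means. NCU09627 was at 43.6 and 14.5 in WT and at 70.6 and 171 in those labelled ∆pas, a 4.16-fold difference. That ratio was 8.35 without WT replicate 1, 2.77 without WT replicate 2 and 2.43 without ∆pas replicate 2. These 2 genes had the widest spread between the mutant libraries among the outermost genes, with replicate 2 higher by up to 2.43-fold. NCU16498, which lies between NCU09627 and NCU09623 in NC12 and carries an identifier outside the range, was at 118 and 66.2 in WT and at 413 and 323 in the libraries labelled ∆pas. The other gene with values that lies between members, NCU16500, next to NCU09594, was at 58.1 and 71.3 in WT against 62.7 and 79.1.

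NCU09623 had no WT reads and only 14 and 8 reads in ∆pas replicates 1 and 2. Its mutant mean was at least 1.84-fold higher than 3 reads in WT replicate 1, which left it just outside the 2-fold rule. NCU09621 was at 161 and 176 in WT and at 386 and 435 in those labelled ∆pas, a 2.44-fold difference. NCU09620, the tenth gene from the end, was at 12.9 and 10.3 in WT and at 55.7 and 54.2 in those labelled ∆pas, a 4.73-fold difference. The libraries of each group agreed closely in both of these genes.

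The run of higher genes then stopped for 4 genes. NCU09619, NCU09617, NCU09616 and NCU09615 had ratios of the group means between 1.03 and 1.09, and WT and the libraries labelled ∆pas overlapped in each. They included NCU09615, with 3052 and 2253 normalized counts in WT against 3258 and 2211 under the ∆pas label, and NCU09617, with 1737 and 913 against 1682 and 1129. NCU09615 and NCU09617 were, together with NCU09610, the members with the most normalized counts in WT, a comparison not corrected for gene length.

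Further in, genes that were higher stood alone or in pairs. NCU09613 was at 22.6 and 7.24 in WT and at 65.9 and 94.6 in those labelled ∆pas, a 5.38-fold difference. This was 11.1-fold without WT replicate 1 and 3.55-fold without WT replicate 2. Its neighbour NCU09612 had 1 and 6 WT reads, or 1.61 and 6.20 normalized counts, against 25.1 and 27.5 in the libraries labelled ∆pas. The ratio of its pooled reads was 5.95 (exact 95% counting interval 2.73 to 15.4), or 16.3 without WT replicate 2.

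The second pair lay at ranks 23 and 24 from the end. NCU09604 was at 25.8 and 17.6 in WT and at 264 and 186 in those labelled ∆pas. The means were 21.7 ± 5.83 and 225 ± 54.9 (SD, n = 2 each), a 10.4-fold difference. NCU09603 had 3 and 1 WT reads, or 4.84 and 1.03 normalized counts, and was at 39.2 and 63.7 in the libraries labelled ∆pas. The ratio of its pooled reads was 20.2 (exact 95% counting interval 7.69 to 75.2). Without WT replicate 1, which leaves 1 WT read, it was 49.2, and without WT replicate 2 it was 10.5. With all 4 libraries, NCU09633 alone had a larger fold difference than this pair among the members with WT reads.

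The innermost gene to meet the 2-fold rule was NCU09596, at rank 29. It was at 25.8 and 45.5 in WT and at 107 and 73.1 in those labelled ∆pas, a 2.52-fold difference. On its outer side NCU09597 was at 1.61 and 5.17 in WT and at 7.06 and 2.58 in those labelled ∆pas, and on its inner side stk-55 was at 187 and 154 against 240 and 152. The groups overlapped in both neighbours. With WT replicate 1 left out its ratio was 1.98 and the innermost such gene was NCU09603, at rank 24. The members nearest to the 2-fold limit were NCU09629 inside it, at 2.20-fold, and NCU09623 outside it.

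The remaining genes of the end showed smaller or no differences. Apart from the higher, the silent and the 4 overlapping genes, 11 genes of chromosome II had ratios between 0.70 and 1.55. In 5 of them both libraries labelled ∆pas lay above WT, in 2 below and in 4 the groups overlapped. Over all genes 26.8% lay above and 23.8% below, so nothing is read from these counts. Those above included NCU09610, at 2250 and 1810 in WT against 2476 and 3130, and cen-c, which overlaps it, at 326 and 346 against 414 and 506. The 2 genes below were NCU09608, at 95.2 and 121 in WT against 80.8 and 70.5, and NCU09594, at 105 and 101 against 82.3 and 77.4. NCU09605, one of the silent genes, had 0 and 2 WT reads, and its 5.49 and 5.16 normalized counts in ∆pas replicates 1 and 2 were too few to meet the rule. NCU09593, the innermost gene of the 32, had at most 3 reads in any library.

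Of the 14 higher genes, 8 were higher in replicate 2 than in replicate 1. The share of reads outside annotated features split the 4 libraries across the groups, at 5.41% and 6.76% in WT replicate 1 and ∆pas replicate 2 and 15.2% and 13.9% in the other two. Within each of these WT and ∆pas pairs 14 of the 43 genes met the rule, and 13 genes met it in both. With 1 library per group the rule is easier to meet. The share of all genes that met it within a pair was not taken, so nothing is read from these counts. In the pair of WT replicate 2 and ∆pas replicate 1, NCU09629 dropped out and NCU09623 came in.

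The fit across all genes was limma on log2(normalized count + 1), run on the 8219 genes that averaged 5 or more normalized counts. Of the 43 genes 31 passed this filter, 28 on chromosome II and 3 on chromosome VII. At an adjusted p under 0.05, limma called 4 of the 43 higher, namely NCU09634, NCU09633, NCU09632 and NCU09604, and 0 lower, where over all genes tested 0.28% were called higher and 0.0852% lower. At an unadjusted p under 0.05 limma had 16 of the 43 higher and 0 lower, against 10.2% and 11.1%. Of the 31 genes, 4 passed the filter only through their level in the libraries labelled ∆pas, namely NCU09634, NCU09633, NCU09612 and NCU09603. The range was chosen on this contrast, so these counts describe it and nothing is read from them. The median log2 fold change of the 31 genes was 0.60, against 0.03 for all genes tested. It rests on the same choice and filter, so nothing is read from it either. On the same scale NCU09633 had a log2 fold change of 5.43 ± 0.359, NCU09632 one of 2.33 ± 0.275 and NCU09604 one of 3.32 ± 0.325 (SE). The count hung on single libraries. The further counts in this paragraph are of genes chosen on the same contrast, so they are a description too and nothing is read from them. Leaving out a library also leaves a lone one in its group, which is assumed to vary like the others. With WT replicate 1 or WT replicate 2 left out, limma called 0 genes of the whole table higher. At an unadjusted p under 0.05, 13 of the 43 were then higher in either case, against 4.35% and 6.34% of all genes tested. Without ∆pas replicate 1 limma called 11 of the 43 higher, against 6.48% of all genes tested, and without ∆pas replicate 2 it called 4, against 0.365%. At an adjusted p under 0.1 in all 4 libraries it called 11 higher, against 2.63%. On the recovered reads edgeR called 4 of the 43 higher and 0 lower, against the same 0.28% and 0.0852% of all genes. DESeq2 called 12 of the 43 higher and 0 lower, against 3.04% and 4.12% of all genes.

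In the authors' deposited tables, with the sign turned to mutant over WT, the ∆set-7 comparison had 6 of the 43 genes at least 2-fold higher with an adjusted p under 0.05, against 1.36% of all genes with an adjusted p, and 0 lower, against 1.69%. The 6 were NCU09634, NCU09633, NCU09632, NCU09621, NCU09604 and NCU09596. The authors' deposited ∆pas table had 4 higher at the same limits, against 0.417%, and 0 lower, against 0.152%. The 4 were NCU09633, NCU09632, NCU09627 and NCU09604. Of the 43 genes, 37 had an adjusted p in the ∆set-7 table and 30 in the ∆pas table. The range was chosen on the ∆pas contrast, and both mutants may have been compared with the same WT libraries. Nothing is therefore read from these counts, and the values below are set side by side only.

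**Figure D2:**
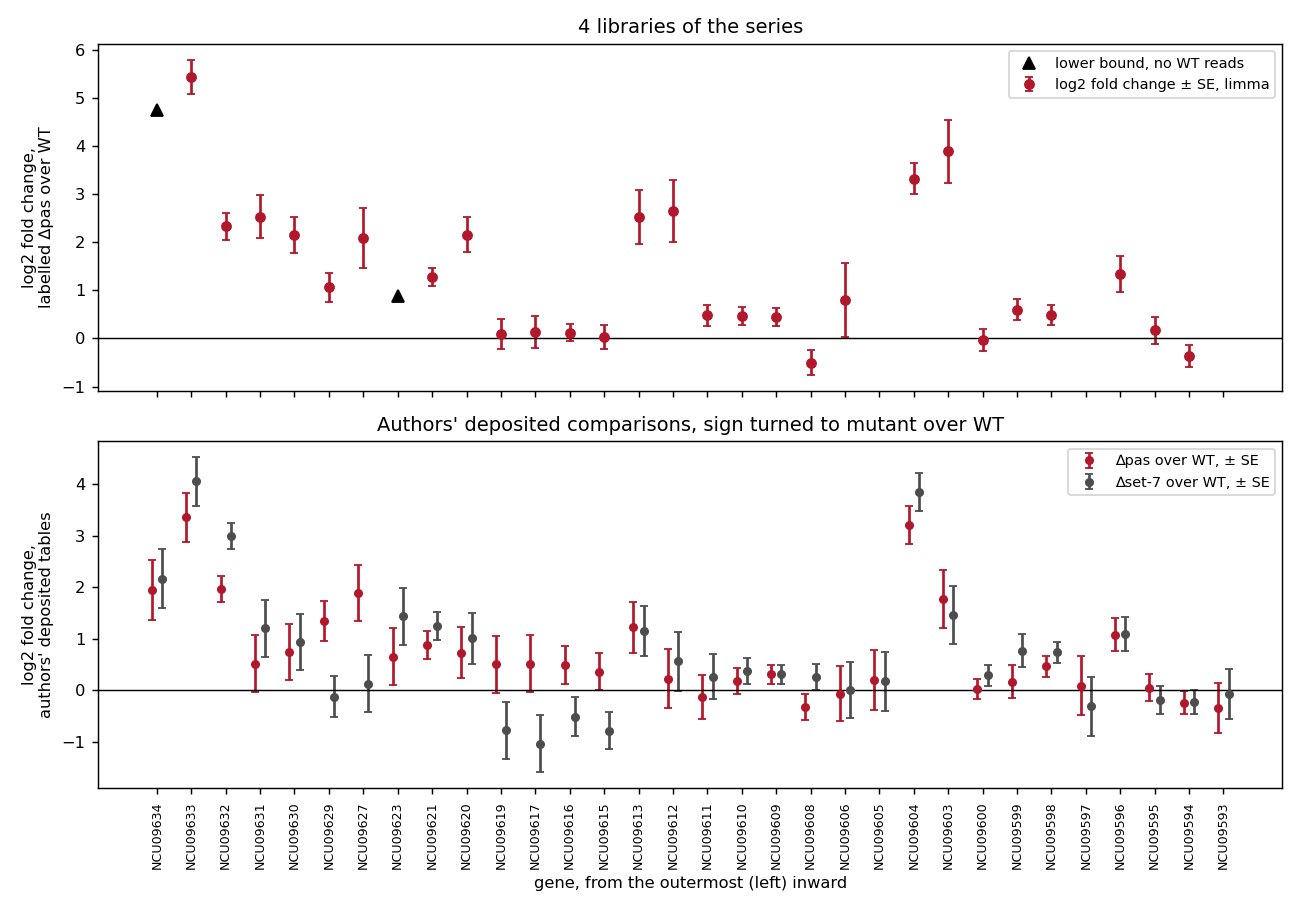
Log2 fold change of the genes at the end of chromosome II, from the outermost inward: above, the libraries labelled ∆pas over WT in the limma fit (points, with SE bars; triangles are lower bounds for genes without WT reads; 3 genes that did not pass the filter have no point), and below, the authors' deposited ∆pas and ∆set-7 comparisons with their SE. In the lower panel NCU09633 and NCU09604 stand highest in both comparisons, while NCU09629 and NCU09627 lie near 0 for ∆set-7.

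At the outermost genes the authors' deposited tables gave NCU09634 a log2 fold change of 1.95 ± 0.576 in ∆pas and 2.17 ± 0.576 in ∆set-7 (SE). For NCU09633 the authors' deposited tables gave 3.36 ± 0.473 in ∆pas and 4.06 ± 0.473 in ∆set-7. For NCU09632 the authors' deposited tables gave 1.97 ± 0.259 in ∆pas and 3.00 ± 0.257 in ∆set-7. These 3 genes had positive values in both deposited comparisons, and NCU09634 was past the limits in ∆set-7 only. For these 3 genes the deposited sizes for ∆pas are smaller than those of the 4 libraries used here. The same held for all of the 14 higher genes except NCU09629, at 1.35 against 1.06 in the limma fit. The gap was wide for some, such as NCU09631, at 0.52 against 2.53, and NCU09612, at 0.23 against 2.65. Some members that were not among the 14 had larger deposited sizes, such as NCU09619, at 0.51 against 0.10. The libraries in the authors' fit and its treatment of uncertain fold changes are not stated.

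The neighbours NCU09629 and NCU09627 had different values in the deposited comparisons. In the authors' deposited tables NCU09629 had a log2 fold change of 1.35 ± 0.395 in ∆pas and -0.12 ± 0.396 in ∆set-7 (SE). NCU09627 had 1.90 ± 0.544 in ∆pas and 0.13 ± 0.549 in ∆set-7 in the authors' deposited tables. The difference between the mutants was not tested. NCU09631, NCU09630 and NCU09620, which met the 2-fold rule in the 4 libraries, were past the limits in neither of the authors' deposited tables, with log2 fold changes of 0.52 to 0.74 in ∆pas and 0.94 to 1.20 in ∆set-7.

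Among the 22 genes further in, NCU09604 had the highest value in each of the authors' deposited tables. NCU09604 had a log2 fold change of 3.22 ± 0.370 in ∆pas and 3.85 ± 0.370 in ∆set-7 in the authors' deposited tables (SE). NCU09621 lies outside these 22 genes, at rank 9. It had 0.88 ± 0.275 in ∆pas and 1.25 ± 0.275 in ∆set-7 in the authors' deposited tables. The innermost gene of the rule, NCU09596, had 1.08 ± 0.320 in ∆pas and 1.09 ± 0.326 in ∆set-7 in the authors' deposited tables. NCU09603 had 1.77 ± 0.560 in ∆pas and 1.46 ± 0.562 in ∆set-7 in the authors' deposited tables, past the limits in neither. Nor were NCU09613, with 1.22 ± 0.490 and 1.16 ± 0.492, and NCU09612, with 0.23 ± 0.572 and 0.56 ± 0.573, in ∆pas and ∆set-7 of the authors' deposited tables. The run NCU09619 to NCU09615, where the groups of the 4 libraries overlapped, had log2 fold changes of 0.37 to 0.52 in ∆pas and of -1.04 to -0.51 in ∆set-7 in the authors' deposited tables, none of them past the limits.

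**Figure D3:**
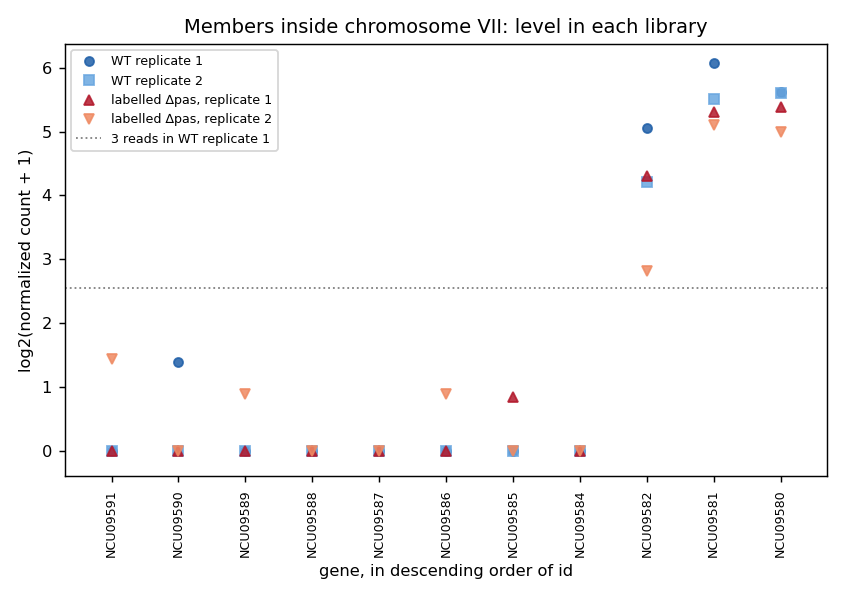
Level of the 11 genes inside chromosome VII in each of the 4 libraries, as log2(normalized count + 1), in descending order of identifier; the dotted line marks 3 reads in WT replicate 1. NCU09591 to NCU09584 lie below the line in all 4 libraries, and NCU09582 to NCU09580 above it.

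The 11 genes on chromosome VII showed another picture. NCU09591 to NCU09584, 8 genes that follow each other in the order of the identifiers, together had 1 and 0 reads in WT replicates 1 and 2 and 1 and 4 reads in ∆pas replicates 1 and 2, with at most 2 reads for any gene in any library. Of these, 3 genes (NCU09588, NCU09587 and NCU09584) had no reads in any of the 4 libraries. At this depth no difference between the groups was detectable for them. For these genes the authors' deposited ∆pas table gave no adjusted p, so the limits could not be applied there. In the ∆set-7 table only NCU09590 and NCU09589 had an adjusted p, and neither was past the limits.

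The last 3 genes of the range were transcribed at low levels and had lower means in the libraries labelled ∆pas. NCU09582 was at 32.3 and 17.6 in WT and at 18.8 and 6.02 in those labelled ∆pas, so the groups overlapped. NCU09581 was at 66.2 and 44.4 in WT and at 38.4 and 33.5 in those labelled ∆pas, and NCU09580 at 48.4 and 47.5 against 40.8 and 31.0. In the last 2 the libraries labelled ∆pas lay below both WT libraries, and limma called none of the 3. In the authors' deposited tables NCU09581 had a log2 fold change of -0.46 ± 0.294 in ∆pas and 0.77 ± 0.285 in ∆set-7 (SE), past the limits in neither.

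How far inward the higher genes reach on chromosome II was checked with the genes beyond NCU09593. Of the 32 genes of the table that come next in the annotated order, 0 met the rule for higher and 3 that for lower, and 6 were silent in WT. Of the 43 identifiers next below NCU09580, 2 were higher and 2 lower. Over all genes 2.95% met the rule for higher, 3.19% that for lower and 13.8% were silent in WT. At these shares few genes are due in groups of this size, so the counts are given as a description only.

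**Figure D4:**
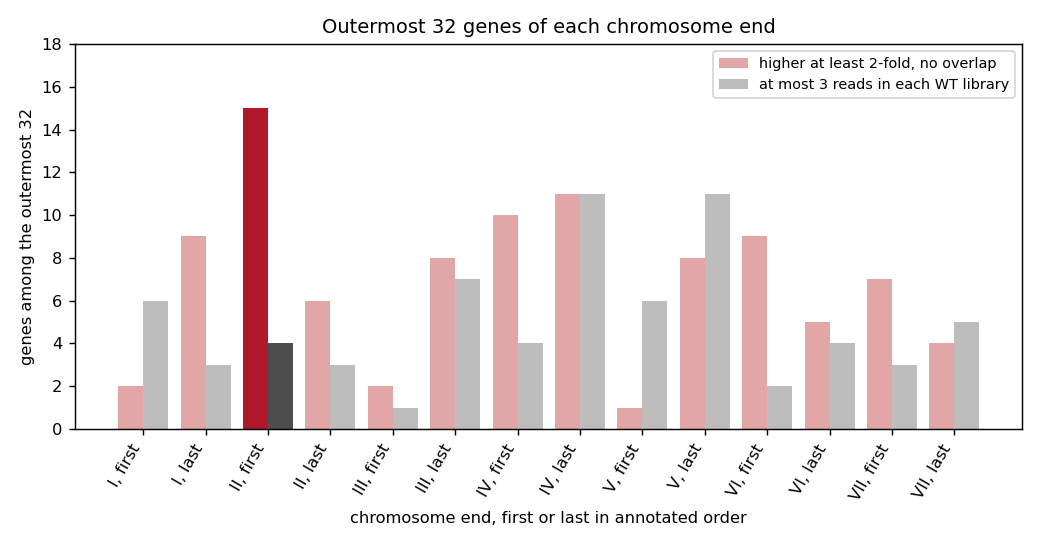
Number of genes among the outermost 32 annotated genes in the table at each of the 14 chromosome ends. Red bars count genes with both libraries labelled ∆pas above both WT libraries and a ratio of the group means of at least 2. Grey bars count genes with at most 3 reads in each WT library. The end of chromosome II with NCU09634, in dark colours, has 15 higher and 4 silent genes; the other ends have 1 to 11 of each.

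The same count was taken at every chromosome end as a description. Among the outermost 32 annotated genes in the table, 15 met the rule at the end with NCU09634, where NCU16498 is counted too, and from 1 to 11 at the other 13 ends, with a median of 7. Silent genes numbered 4 at the end with NCU09634 and from 1 to 11 at the other ends, with a median of 4. The end was chosen for its higher genes, so its place in this order is not a finding.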

How the data were processed

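Poly-A RNA of 2 WT and 2 ∆pas strains was analysed, with libraries made by a stranded mRNA kit per the labels' protocols. Normalized read counts per gene, a signal that is never below 0, were deposited by the authors. Besides the columns used here they hold 4 more, which name set7 or WT. These match no sample of the series and were not used. Bowtie2 and DESeq2 are named, with no role, in the submitters' processing notes; the counter, annotation and build are not given in the sources used here. The values of each library were whole multiples of 1 step (within 0.1 reads for 100% of genes), and division by it gave the reads. The 4 summary entries, 12.1% to 22.0% of reads, were left out. The authors also deposited log2 fold changes with standard errors, p-values and adjusted p-values of WT over ∆pas and over ∆set-7; their sign was turned here.

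Groups were compared with limma 3.58.1 (R 4.3.3) on log2(normalized count + 1), with an intensity trend and group as the only term, on genes with a mean of at least 5, with Benjamini-Hochberg adjustment over all 8219 tested genes; tests were two-sided. edgeR 4.0.16 and DESeq2 1.42.0 on the recovered reads were alternatives. The scripts were tested on simulated data. With 2 libraries per group, limma p-values rest on the spread between the 2 strains of each group, moderated by the variance of other genes of similar level. The residual degrees of freedom were 2 and the prior ones 4.34. Replicates were numbered in sample order. Replicate libraries differed by more than read sampling (chi-square over genes 21.0 and 76.6 times its degrees of freedom). The genes and lists were chosen with earlier results of these data known. Genes were named where the 2-fold rule, limma or the authors' limits picked them, where they border the innermost such gene, or where they had the most WT counts; NCU09633, NCU09634 and NCU09604 were named in advance. Genes outside that rule, such as NCU09623, NCU09605, NCU09608 and those of chromosome VII, were added after their values were seen. Intervals of read ratios are exact (Clopper-Pearson, 95%).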

Additional observations from a re-analysis of the deposited data

How the results depend on the processing

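The 14 higher genes came to 13 to 16 with other scaling, a 1.5-fold limit, within either pair of libraries or with 1 library left out, and to 11 at 4-fold. The 4 genes called by limma were 4 with TMM scaling, with edgeR, with a pseudocount of 0.5 or 5 and with a minimum mean of 20, and 3 with no filter on low values or with reads outside features as a covariate. They were 2 without the intensity trend, 11 at an adjusted p under 0.1, 12 with DESeq2, and 0 to 11 with 1 library left out, where the lone library of a group is assumed to vary like the others; the cause was not tested. No gene of the 43 was called lower in any of these. The 13 silent genes came to 9 at a limit of 0 reads, to 20 at a limit of 10 reads, and to 14 to 17 when 1 WT library was left out. The 6 genes higher in the authors' ∆set-7 table came to 4 at 4-fold and 7 with no fold limit. The median log2 fold change was 0.60 and moved to 0.83 in WT replicate 1 against ∆pas replicate 2, the pair with few reads outside features, and 0.75 within the other; with 1 library left out it ran from 0.50 to 0.78. No paired analysis was possible because the labels give strain names and no replicate numbers. Depth limits the silent genes most: with 3 reads as the floor, differences in genes of a few reads were not detectable.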
